A study of Mus musculus with 12 samples.

Results

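Ribosomal protein pseudogenes are copies of ribosomal protein genes that lie elsewhere in the genome. The members described here were the genes annotated as pseudogenes whose symbol was that of a ribosomal protein gene followed by -ps and a number. There were 58 of them, in 20 families named after 20 parent genes, among 14907 genes listed in any of the deposited tables. The tables listed 1172 pseudogenes in all, and pseudogenes of ribosomal protein genes with other kinds of symbol were not counted as members. The annotation called 56 members processed pseudogenes, and called the other two, Rpl10-ps1 and Rps2-ps10, transcribed processed pseudogenes. The largest families were those of Rpsa with 8 members, Rps2 with 6, and Rpl17 and Rpl19 with 5 each.

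Messenger RNA was measured in primary mesenchymal cells of the mouse small intestine, which form the connective tissue under the gut epithelium. All cells were of strain C57/Bl6, had been grown to passage 3 and were sorted for GFP. There were 12 libraries in 4 groups of 3: MyD88ko with LPS, wt with LPS, MyD88ko untreated and wt untreated. The MyD88ko cells are labelled ColVIcre-MyD88F/F-RosamTmG, in which Cre under the ColVI promoter deletes floxed Myd88 in collagen VI-expressing cells and a reporter turns to GFP. The wt cells are labelled MyD88F/F-RosamTmG, without Cre, although the design text calls them Cre-positive; if the label is right, Cre and the deletion cannot be told apart. Every group was deprived of serum overnight, and the LPS groups then had E. coli LPS at 2 µg/ml for 6 hours. LPS, a Gram-negative cell wall lipid, is sensed by TLR4, and MyD88 is an adaptor that carries the signal of TLR4. The labels do not say whether replicates came from separate animals or cultures, so p-values measure the spread between libraries, which may be technical. All untreated libraries carry lower library codes than all LPS libraries, so treatment and that order of libraries cannot be told apart. Within each treatment all MyD88ko libraries carry lower codes than all wt libraries, so the same holds for genotype.

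The targeted gene, Myd88, had 24, 22 and 5 normalized counts in MyD88ko LPS libraries, against 171, 204 and 213 in wt LPS libraries. It had 14, 8 and 10 in MyD88ko untreated libraries, against 99, 98 and 103 in wt untreated libraries, so genotypes did not overlap. The normalized values corresponded to an estimated 2.5 to 5.3 megareads counted per library. All 11 mesenchymal markers were listed, with summed values of 43643 to 141849. Of 12 epithelial markers 8 were listed, with sums of 397 and 983 in wt untreated replicates 1 and 3, against 4 to 70 in the other libraries. Of 7 hepatocyte markers 4 were listed, with sums of 4 to 25 in LPS libraries and 109 to 265 in untreated libraries. Of these, Alb and Serpina3k were at 0 in all LPS libraries and between 6 and 188 in all untreated libraries.

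Ribosomes are built from ribosomal RNA and a set of ribosomal proteins, of which Rpl genes encode those of the large subunit and Rps genes those of the small subunit. Ribosomal protein messenger RNAs are short and very abundant, and germline reverse transcription has copied them into the mouse genome many times. Such processed copies carry no introns and, as a rule, no promoter of their own, and many have lost the reading frame. A read from a parent messenger RNA can match a young copy perfectly, so reads of near-identical copies cannot be assigned with certainty.

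The sequences were taken from the GENCODE M21 transcripts on GRCm38, the same assembly as mm10, and 54 of 58 members lay at the coordinates given in the files. Identity with the closest ribosomal protein gene had a median of 98.5%, and 35 members had at least 98%. Over their whole length 4 members were identical to the parent: Rpl10-ps1, Rpl10a-ps1, Rpl15-ps3 and Rps6-ps4. For 57 members the closest gene was the parent in the symbol. The exception was Rpl18-ps1, with 98.3% identity to a ribosomal protein gene other than Rpl18. In the ratios and families below Rpl18-ps1 was still set against Rpl18, by its symbol. The parent's reading frame, with a stop codon at its end, was intact in 23 members. It was not in 26, and could not be followed from the start codon in 9. The 26 include copies open over all of the parent's codons whose annotated interval ends before the stop codon, such as Rpl3-ps1 and Rpl7a-ps10.

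The last 120 coding bases of 3 parents are printed with the aligned bases of 7 members, capitals marking bases that differ from the parent. The coordinates are those of the whole gene or pseudogene on GRCm38, and each sequence runs 5′ to 3′ on the gene's strand. These bases lie nearest the end of the transcript that a 3′ library reads. Rpl10a (chr17:28328471-28331032, plus strand) is followed by a member present in wt untreated libraries and by a member identical to the parent. Rps2 (chr17:24718116-24721929, plus strand) is followed by another member present in wt untreated libraries. Rpl7a (chr2:26910764-26913318, plus strand) is followed by a member lower with LPS, by members higher with LPS, and by a member found in wt untreated libraries.
Rpl10a: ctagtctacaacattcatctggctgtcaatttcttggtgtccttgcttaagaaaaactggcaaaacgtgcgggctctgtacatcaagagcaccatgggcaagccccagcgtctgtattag
Rpl10a-ps2 (chr13:8940336-8940977, minus strand): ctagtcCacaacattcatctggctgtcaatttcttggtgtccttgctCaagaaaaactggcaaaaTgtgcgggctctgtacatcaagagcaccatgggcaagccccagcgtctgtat
Rpl10a-ps1 (chr1:64993951-64994604, minus strand): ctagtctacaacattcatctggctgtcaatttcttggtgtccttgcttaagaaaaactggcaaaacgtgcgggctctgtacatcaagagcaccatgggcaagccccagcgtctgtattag
Rps2: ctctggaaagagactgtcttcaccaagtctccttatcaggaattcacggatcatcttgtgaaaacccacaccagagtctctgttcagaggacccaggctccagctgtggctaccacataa
Rps2-ps11 (chr9:108358202-108359069, minus strand): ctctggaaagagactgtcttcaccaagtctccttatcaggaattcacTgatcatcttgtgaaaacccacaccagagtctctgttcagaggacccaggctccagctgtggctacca
Rpl7a: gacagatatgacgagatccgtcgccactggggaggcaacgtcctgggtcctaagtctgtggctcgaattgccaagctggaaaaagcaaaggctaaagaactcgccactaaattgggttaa
Rpl7a-ps11 (chrX:166854211-166855011, plus strand): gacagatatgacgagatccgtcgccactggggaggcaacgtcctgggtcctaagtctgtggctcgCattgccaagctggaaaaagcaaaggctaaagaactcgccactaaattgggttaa
Rpl7a-ps7 (chr3:129461972-129462747, plus strand): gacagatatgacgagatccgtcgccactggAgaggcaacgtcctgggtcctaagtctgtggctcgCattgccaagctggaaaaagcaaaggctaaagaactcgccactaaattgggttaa
Rpl7a-ps10 (chr9:97179179-97179976, plus strand): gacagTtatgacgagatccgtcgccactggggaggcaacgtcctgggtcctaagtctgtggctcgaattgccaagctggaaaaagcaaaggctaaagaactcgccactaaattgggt
Rpl7a-ps8 (chr7:19953783-19954583, plus strand): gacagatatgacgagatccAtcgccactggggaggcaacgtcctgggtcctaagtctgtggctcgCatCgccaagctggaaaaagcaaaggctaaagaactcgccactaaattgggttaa
In this stretch Rpl10a-ps2 and Rpl7a-ps8 each differed from the parent at 3 bases, Rpl7a-ps7 at 2, and Rps2-ps11, Rpl7a-ps11 and Rpl7a-ps10 at 1 each. Over the whole length more bases were not identical to the parent, 42 each in Rpl10a-ps2 and Rpl7a-ps8 and 24 in Rps2-ps11. Rpl7a-ps7 had 12 such bases, Rpl7a-ps10 had 11 and Rpl7a-ps11 had 2.

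Over whole members, 14 shared no 100-base window with the parent transcript, and 11 shared none with a transcript of any other gene. In 7 members every 100-base window also occurred in a transcript of another gene. The annotated interval of 52 members ended at or before the parent's stop codon, and 3 ran more than 10 bases past it. Another gene overlapped 21 members. In 5 of these a protein-coding gene on the same strand did so: Rpl10-ps6 in Ide, Rpl17-ps8 in Heph, Rpl18-ps1 in Ctla4, Rplp0-ps1 in Flg and Rps6-ps3 in Rab39. How the authors' counting treated multiply matching or overlapping reads is not given in the sources used here, so every level below is a level assigned to the locus.

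limma was run on log2(value + 1) over all genes, and calls were made where the p adjusted by Benjamini-Hochberg was below 0.05. A test was possible for 52 members, those listed in all 12 libraries whose group mean reached 10 somewhere. Of these, 6 reached that mean in only 1 group: Rpl10a-ps2, Rpl19-ps9, Rpl19-ps12, Rps2-ps9 and Rps2-ps11 in wt untreated cells, and Rpsa-ps11 in MyD88ko untreated cells. Since they entered the test through a group in which they were high, their differences from that group are descriptions. With LPS, many members rose while most parent genes fell. In MyD88ko cells 12 members rose and 7 fell, while over all genes 5.98% were called, 2.58% higher and 3.4% lower. In wt cells 18 rose and 13 fell, while over all genes 19.2% were called, 9.55% higher and 9.66% lower. Of the 13 that fell in wt, 5 were among the members that reached the mean in 1 group only and 8 were not. The median log2 fold change of the members was 0.31 in MyD88ko and 0.32 in wt, against medians of 0.0036 and 0.013 over all genes tested.

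Of the 20 parent genes, 14 fell and 0 rose in each genotype, with a median log2 fold change of -0.84 in MyD88ko and -0.78 in wt. At an unadjusted p under 0.05, 18 parents in MyD88ko and 16 in wt passed, against 2600 and 3966 of 12385 genes tested. The 83 cytosolic ribosomal protein genes, a list that contains the parents, had 1 higher and 43 lower in MyD88ko and 3 higher and 50 lower in wt. Among 22 ribosome biogenesis genes, 1 rose and 2 fell in MyD88ko, and 3 rose and 2 fell in wt. Among 22 translation factors, 0 rose and 6 fell in MyD88ko, and 2 rose and 6 fell in wt. Of 669 other pseudogenes tested, 75 rose and 32 fell in MyD88ko, and 163 rose and 114 fell in wt. Each called member with a called parent was either higher while the parent was lower, 6 times in MyD88ko and 12 in wt, or lower with a lower parent, 6 times in MyD88ko and 10 in wt. In bulk cells a smaller number of cells of a type and less RNA per cell cannot be told apart. The part of the hepatocyte markers that also separate LPS from untreated libraries was not tested.

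Counting the same members in both genotypes, 11 rose in each, 5 fell in each, and 0 went opposite ways. Over all genes tested, 1.94% rose in each genotype, 2.36% fell in each and 0% went opposite ways. A call in wt alone was made for 7 members that rose and 8 that fell, against 7.61% and 7.31% of all genes. Those that fell included Rpl10a-ps2, Rpl19-ps9, Rpl19-ps12, Rps2-ps11 and Rpsa-ps11, which reached the mean of 10 in only 1 group. For all of these but Rpsa-ps11 that group was wt untreated, so their falls are descriptions. A call in MyD88ko alone was made for 1 that rose and 2 that fell, against 0.646% and 1.04% of all genes. The wt count dropped to 17 of 50 members tested, against 7.88% of all genes, without wt untreated replicates 1 and 3, and 16 of these 17 were called with all libraries. In that fit 1 wt untreated library is left, which is assumed to vary like the other groups. The wt calls of members that rose and that ended then were those of Rpl5-ps1 (0.70), Rpl7a-ps7 (1.04), Rpl7a-ps10 (1.55), Rpl15-ps5 (2.16), Rpl17-ps4 (1.12), Rpl17-ps8 (1.13), Rps2-ps13 (0.65) and Rps6-ps2 (1.69), with the log2 fold change in that fit in parentheses. The ended calls of members that fell were those of Rpl10a-ps2 (-3.30), Rpl15-ps2 (-1.24), Rpl19-ps9 (-2.79), Rps2-ps11 (-3.02), Rpsa-ps2 (-0.84) and Rpsa-ps11 (-2.48), and Rpl19-ps12 was no longer tested. The MyD88ko count dropped to 12 without MyD88ko untreated replicate 1, where 3.5% of all genes were called.

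**Figure D1:**
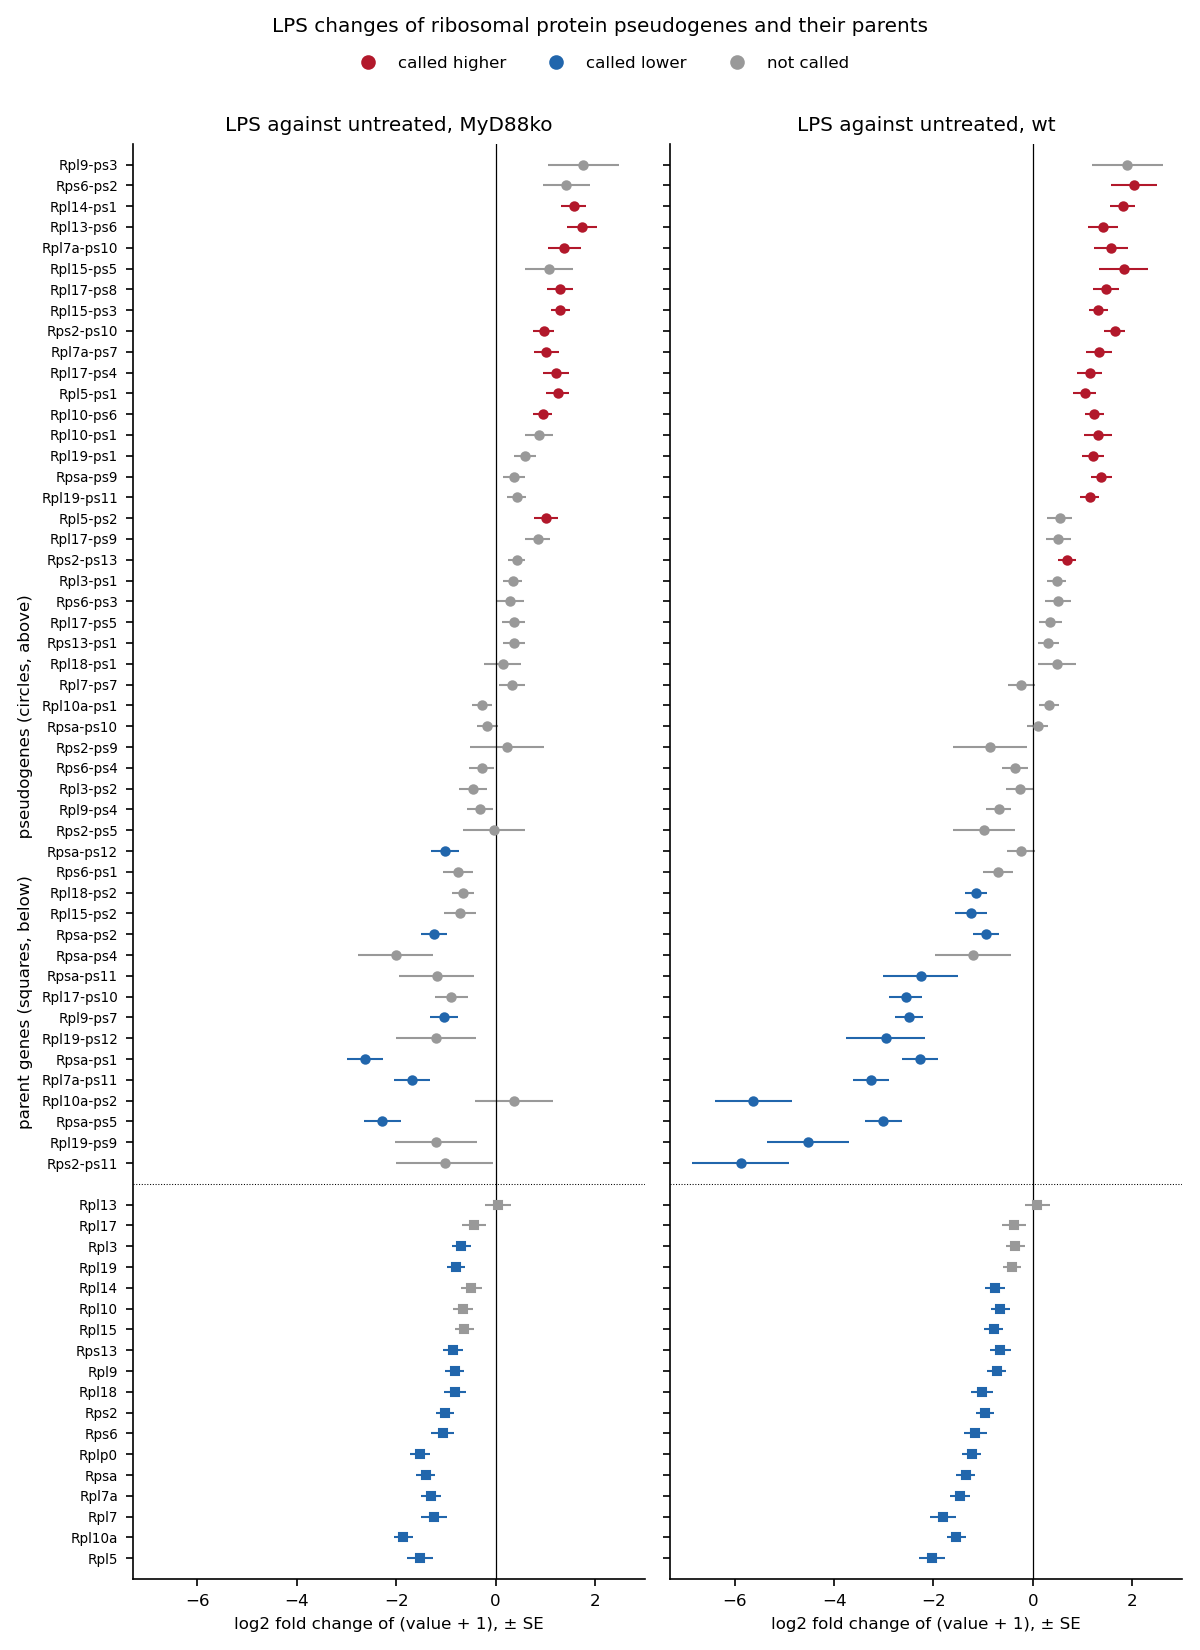
Log2 fold change of (value + 1) with LPS against untreated, with its standard error from limma, for 49 of the tested pseudogenes (circles) and 18 parent genes (squares), in MyD88ko (left) and wt (right). Red marks genes called higher, blue genes called lower and grey genes not called; pseudogenes lie on both sides of 0, and called parents lie below it.

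Rpl14, Rpl13 and Rpl5 encode large subunit proteins, and Rpl5 binds the 5S ribosomal RNA. Rpl14-ps1 had 2552, 1974 and 1350 in MyD88ko LPS libraries, against 666, 518 and 754 in MyD88ko untreated libraries, and 1931, 1580 and 2418 in wt LPS libraries, against 654, 436 and 603 in wt untreated libraries. No LPS library overlapped an untreated library of its genotype, and its log2 fold change was 1.57 ± 0.25 in MyD88ko (adjusted p = 0.000739) and 1.81 ± 0.25 in wt (adjusted p = 4.96e-05), where ± is the standard error. Its parent Rpl14 had 3036, 3550 and 2798 in MyD88ko LPS libraries, against 3878, 4451 and 4808 in MyD88ko untreated libraries, and 2394, 2411 and 2637 in wt LPS libraries, against 5549, 4247 and 3168 in wt untreated libraries. Rpl14 fell in wt (-0.76 ± 0.21, adjusted p = 0.0138), and its log2 fold change in MyD88ko was -0.49 ± 0.21 (adjusted p = 0.184). Rpl13-ps6 had 591, 367 and 260 in MyD88ko LPS libraries, against 124, 91 and 134 in MyD88ko untreated libraries, and 211, 264 and 390 in wt LPS libraries, against 140, 93 and 88 in wt untreated libraries. It rose in each genotype without overlap, and its log2 fold change was 1.73 ± 0.30 in MyD88ko (adjusted p = 0.00159) and 1.41 ± 0.30 in wt (adjusted p = 0.00256). The parent Rpl13 had 9852, 6339 and 6410 in MyD88ko LPS libraries, against 6957, 6035 and 8617 in MyD88ko untreated libraries, and 5033, 5165 and 7399 in wt LPS libraries, against 6834, 6594 and 3524 in wt untreated libraries, with overlapping groups and log2 fold changes of 0.05 in MyD88ko and 0.09 in wt.

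Rpl5-ps1 had 826, 558 and 494 in MyD88ko LPS libraries, against 233, 239 and 302 in MyD88ko untreated libraries, and 378, 413 and 401 in wt LPS libraries, against 201, 244 and 145 in wt untreated libraries. It rose in each genotype, and its log2 fold change was 1.25 ± 0.24 in MyD88ko (adjusted p = 0.0033) and 1.04 ± 0.24 in wt (adjusted p = 0.00391). Rpl5-ps2 had 144, 109 and 166 in MyD88ko LPS libraries, against 70, 66 and 67 in MyD88ko untreated libraries, and 92, 94 and 84 in wt LPS libraries, against 63, 67 and 55 in wt untreated libraries. Its call was in MyD88ko (1.01 ± 0.25, adjusted p = 0.0182; 0.54 ± 0.25 in wt, adjusted p = 0.138), and it ended without MyD88ko LPS replicate 1 or 3 or any 1 MyD88ko untreated replicate, with adjusted p of 0.0518 to 0.0672. The parent Rpl5 had 2180, 1524 and 1550 in MyD88ko LPS libraries, against 5287, 4080 and 5624 in MyD88ko untreated libraries, and 863, 1070 and 1126 in wt LPS libraries, against 4789, 5923 and 2539 in wt untreated libraries. It fell the most of the parents in wt, and its log2 fold change was -1.52 ± 0.26 in MyD88ko (adjusted p = 0.00154) and -2.04 ± 0.26 in wt (adjusted p = 3.13e-05), so the log2 ratio of Rpl5-ps1 to Rpl5 was 2.77 higher with LPS in MyD88ko and 3.08 higher in wt. Without wt untreated replicates 1 and 3 the wt change of Rpl5-ps1 was 0.70 (adjusted p = 0.19), and those of Rpl14-ps1 and Rpl13-ps6 stayed called.

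Rpl10, Rpl15 and Rpl17 also belong to the large subunit, and Rpl10 joins it late in assembly. Rpl10-ps6 had 1317, 1307 and 1784 in MyD88ko LPS libraries, against 769, 784 and 705 in MyD88ko untreated libraries, and 1272, 1446 and 1432 in wt LPS libraries, against 526, 678 and 560 in wt untreated libraries. Groups did not overlap, and its log2 fold change was 0.95 ± 0.19 in MyD88ko (adjusted p = 0.00562) and 1.24 ± 0.19 in wt (adjusted p = 0.000171). Rpl10-ps1, identical to its parent over the whole length, had 125, 169 and 177 in MyD88ko LPS libraries, against 102, 96 and 62 in MyD88ko untreated libraries, and 159, 143 and 213 in wt LPS libraries, against 93, 55 and 61 in wt untreated libraries. Its LPS and untreated groups did not overlap in either genotype. The wt rise was called (1.31 ± 0.28, adjusted p = 0.00264), and the change was 0.87 ± 0.28 in MyD88ko (adjusted p = 0.0727). The parent Rpl10 had 2001, 2126 and 2695 in MyD88ko LPS libraries, against 3594, 3948 and 3175 in MyD88ko untreated libraries, and 1859, 1926 and 1747 in wt LPS libraries, against 2991, 3466 and 2346 in wt untreated libraries. It fell in wt (-0.65 ± 0.20, adjusted p = 0.026) and was -0.66 ± 0.20 in MyD88ko (adjusted p = 0.0556).

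Rpl15-ps3, also identical to its parent, had 1764, 1729 and 1687 in MyD88ko LPS libraries, against 649, 708 and 748 in MyD88ko untreated libraries, and 1410, 1623 and 1922 in wt LPS libraries, against 798, 639 and 555 in wt untreated libraries. It rose about equally in both genotypes, and its log2 fold change was 1.30 ± 0.19 in MyD88ko (adjusted p = 0.000457) and 1.32 ± 0.19 in wt (adjusted p = 0.000104). Rpl15-ps5, a low member, had 28, 23 and 26 in MyD88ko LPS libraries, against 8, 13 and 15 in MyD88ko untreated libraries, and 17, 27 and 21 in wt LPS libraries, against 9, 4 and 4 in wt untreated libraries. It rose in wt (1.82 ± 0.49, adjusted p = 0.0126; 1.07 ± 0.49 in MyD88ko, adjusted p = 0.213), a call that ended without wt LPS replicate 2 (adjusted p = 0.0527). Rpl15-ps2 went the other way, with 57, 44 and 85 in MyD88ko LPS libraries, against 104, 101 and 93 in MyD88ko untreated libraries, and 34, 49 and 57 in wt LPS libraries, against 162, 109 and 74 in wt untreated libraries. Its fall in wt (-1.24 ± 0.32, adjusted p = 0.0101; -0.72 ± 0.32 in MyD88ko, adjusted p = 0.203) ended without wt LPS replicate 1 (adjusted p = 0.0605) or wt untreated replicate 1 (adjusted p = 0.0717). The parent Rpl15 had 2119, 2115 and 2237 in MyD88ko LPS libraries, against 3149, 3412 and 3492 in MyD88ko untreated libraries, and 1417, 1757 and 1929 in wt LPS libraries, against 3246, 3226 and 2382 in wt untreated libraries. It fell in wt (-0.79 ± 0.19, adjusted p = 0.00651) and was -0.63 ± 0.19 in MyD88ko (adjusted p = 0.0567).

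The Rpl17 family split likewise. Rpl17-ps8 had 2923, 1925 and 1172 in MyD88ko LPS libraries, against 843, 659 and 792 in MyD88ko untreated libraries, and 1486, 1570 and 1987 in wt LPS libraries, against 561, 763 and 504 in wt untreated libraries. It rose in each genotype, and its log2 fold change was 1.30 ± 0.27 in MyD88ko (adjusted p = 0.00603) and 1.47 ± 0.27 in wt (adjusted p = 0.000663). Rpl17-ps4 had 218, 169 and 149 in MyD88ko LPS libraries, against 101, 59 and 73 in MyD88ko untreated libraries, and 145, 180 and 183 in wt LPS libraries, against 90, 77 and 63 in wt untreated libraries. It also rose, and its log2 fold change was 1.21 ± 0.26 in MyD88ko (adjusted p = 0.00825) and 1.14 ± 0.26 in wt (adjusted p = 0.00425); its MyD88ko call ended without MyD88ko untreated replicate 2 (adjusted p = 0.0573). Rpl17-ps10 had 93, 80 and 84 in MyD88ko LPS libraries, against 217, 113 and 165 in MyD88ko untreated libraries, and 26, 53 and 41 in wt LPS libraries, against 295, 305 and 137 in wt untreated libraries. Its LPS and untreated groups did not overlap in either genotype. It fell in wt (-2.56 ± 0.33, adjusted p = 3.19e-05) and was -0.89 ± 0.33 in MyD88ko (adjusted p = 0.12). The parent Rpl17 had 992, 803 and 652 in MyD88ko LPS libraries, against 1194, 957 and 1128 in MyD88ko untreated libraries, and 606, 622 and 781 in wt LPS libraries, against 905, 1203 and 588 in wt untreated libraries, with overlapping groups in each genotype and no call. Rpl17-ps5 and Rpl17-ps9 were not called, with log2 fold changes of 0.36 and 0.84 in MyD88ko and 0.35 and 0.51 in wt.

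Rpl7a, a large subunit protein, had copies called in opposite directions. Over the whole length, 12 bases of Rpl7a-ps7, 11 of Rpl7a-ps10 and 2 of Rpl7a-ps11 were not identical to the parent. Rpl7a-ps7 had 2263, 1955 and 1117 in MyD88ko LPS libraries, against 717, 842 and 981 in MyD88ko untreated libraries, and 1803, 1456 and 1632 in wt LPS libraries, against 455, 791 and 747 in wt untreated libraries. It rose in each genotype, and its log2 fold change was 1.02 ± 0.26 in MyD88ko (adjusted p = 0.0218) and 1.33 ± 0.26 in wt (adjusted p = 0.00117). The MyD88ko call ended without MyD88ko LPS replicate 1 or 2 or MyD88ko untreated replicate 1 or 2, with adjusted p of 0.0753 to 0.105. Rpl7a-ps10 had 93, 73 and 67 in MyD88ko LPS libraries, against 22, 33 and 33 in MyD88ko untreated libraries, and 121, 77 and 57 in wt LPS libraries, against 24, 27 and 29 in wt untreated libraries. It rose as well, and its log2 fold change was 1.38 ± 0.33 in MyD88ko (adjusted p = 0.0164) and 1.57 ± 0.33 in wt (adjusted p = 0.00245); the MyD88ko call ended without MyD88ko LPS replicate 1 (adjusted p = 0.0657) or MyD88ko untreated replicate 1 (adjusted p = 0.0817). Rpl7a-ps11 had 18, 26 and 43 in MyD88ko LPS libraries, against 88, 86 and 97 in MyD88ko untreated libraries, and 13, 25 and 11 in wt LPS libraries, against 187, 125 and 158 in wt untreated libraries. All LPS libraries were below all untreated ones, and its log2 fold change was -1.69 ± 0.36 in MyD88ko (adjusted p = 0.00774) and -3.25 ± 0.36 in wt (adjusted p = 8.35e-06). The parent Rpl7a had 1082, 1112 and 770 in MyD88ko LPS libraries, against 2283, 2505 and 2403 in MyD88ko untreated libraries, and 940, 821 and 882 in wt LPS libraries, against 2125, 2822 and 2386 in wt untreated libraries. Rpl7a fell without overlap in each genotype, and its log2 fold change was -1.30 ± 0.20 in MyD88ko (adjusted p = 0.000481) and -1.46 ± 0.20 in wt (adjusted p = 4.2e-05). In Rpl7a-ps11 every 100-base window occurred in a transcript of another gene, against 58.2% of windows in Rpl7a-ps7 and 36.9% in Rpl7a-ps10.

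**Figure D2:**
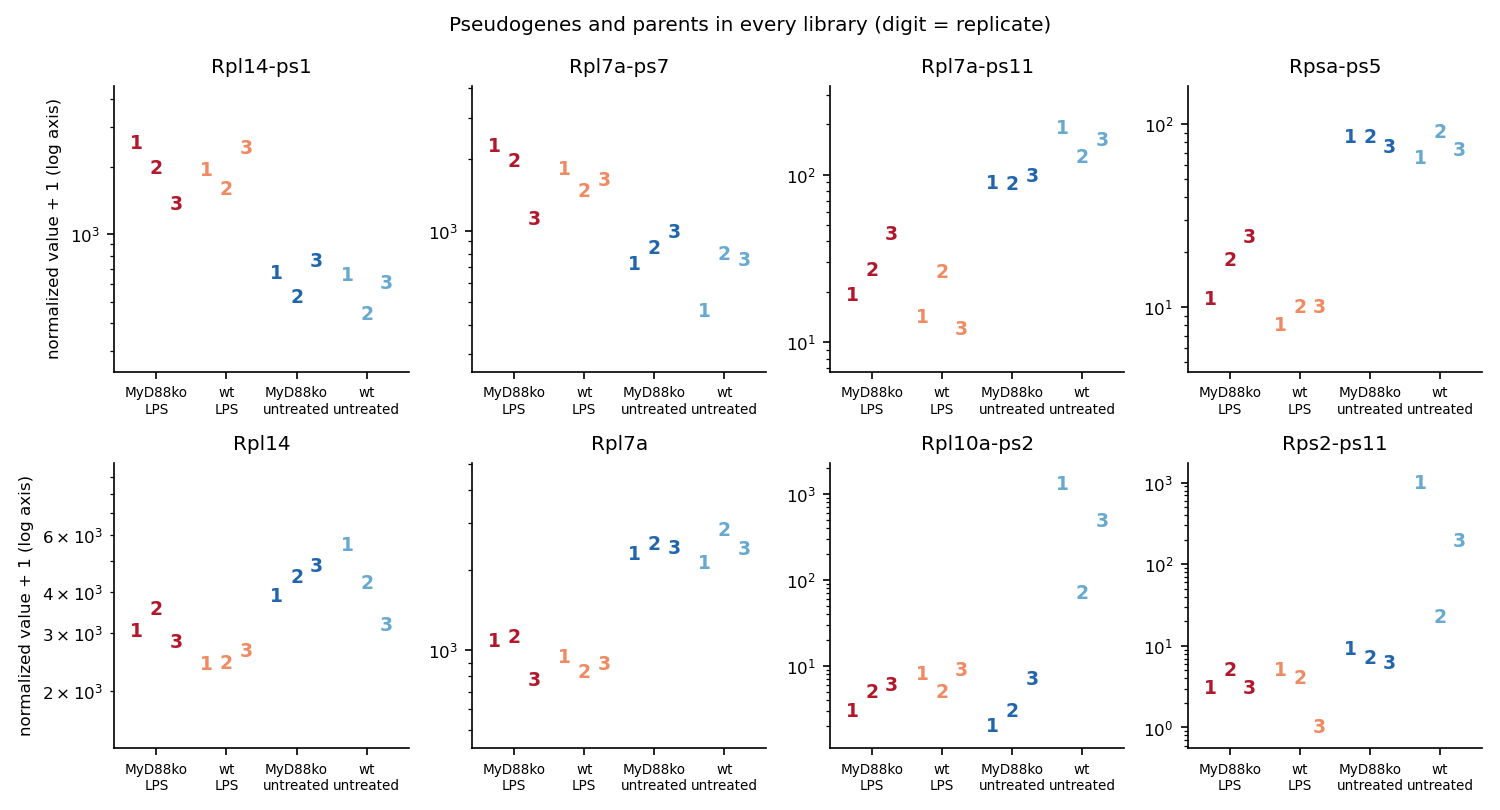
Normalized value plus 1 (log axis) of 6 pseudogenes and of the parents Rpl14 and Rpl7a in each of the 12 libraries, with digits for the replicate number and the groups MyD88ko LPS, wt LPS, MyD88ko untreated and wt untreated from left to right. Rpl14-ps1 and Rpl7a-ps7 are higher in LPS libraries and Rpl7a-ps11 and Rpsa-ps5 lower, while Rpl10a-ps2 reaches 1280 and 478 and Rps2-ps11 981 and 189 in wt untreated replicates 1 and 3.

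Rps2 and Rps6 encode small subunit proteins, and Rps6 is the ribosomal protein that S6 kinases phosphorylate. Rps2-ps10, a transcribed processed pseudogene, had 1029, 984 and 798 in MyD88ko LPS libraries, against 398, 543 and 500 in MyD88ko untreated libraries, and 959, 675 and 913 in wt LPS libraries, against 259, 243 and 303 in wt untreated libraries. It rose in each genotype, and its log2 fold change was 0.97 ± 0.21 in MyD88ko (adjusted p = 0.00813) and 1.65 ± 0.21 in wt (adjusted p = 2.57e-05); the MyD88ko call ended without MyD88ko untreated replicate 1 (adjusted p = 0.0538). Rps2-ps13 had 1202, 1216 and 1196 in MyD88ko LPS libraries, against 838, 1017 and 855 in MyD88ko untreated libraries, and 1140, 987 and 1016 in wt LPS libraries, against 672, 666 and 617 in wt untreated libraries. It rose in wt (0.68 ± 0.18, adjusted p = 0.0106; 0.42 ± 0.18 in MyD88ko, adjusted p = 0.178), though not without wt LPS replicate 1 (adjusted p = 0.0506). The parent Rps2 had 2133, 2440 and 2847 in MyD88ko LPS libraries, against 4656, 5802 and 4528 in MyD88ko untreated libraries, and 2055, 2048 and 1962 in wt LPS libraries, against 4083, 3938 and 3801 in wt untreated libraries. It fell in each genotype, and its log2 fold change was -1.01 ± 0.18 in MyD88ko (adjusted p = 0.00253) and -0.96 ± 0.18 in wt (adjusted p = 0.0011). Rps6-ps2, a low member, had 31, 23 and 42 in MyD88ko LPS libraries, against 17, 7 and 11 in MyD88ko untreated libraries, and 34, 23 and 39 in wt LPS libraries, against 6, 9 and 6 in wt untreated libraries. Its LPS and untreated groups did not overlap in either genotype. The wt rise was called (2.03 ± 0.47, adjusted p = 0.00468), and the change was 1.42 ± 0.47 in MyD88ko (adjusted p = 0.0809). The parent Rps6 had 1429, 1164 and 735 in MyD88ko LPS libraries, against 2197, 2148 and 2393 in MyD88ko untreated libraries, and 780, 779 and 754 in wt LPS libraries, against 1715, 2282 and 1302 in wt untreated libraries. It fell in each genotype, and its log2 fold change was -1.07 ± 0.24 in MyD88ko (adjusted p = 0.0102) and -1.16 ± 0.24 in wt (adjusted p = 0.00194).

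Rpl19, of the large subunit, had 5 listed pseudogenes. Rpl19-ps11 had 2074, 2102 and 1783 in MyD88ko LPS libraries, against 1386, 1370 and 1679 in MyD88ko untreated libraries, and 2196, 1980 and 2407 in wt LPS libraries, against 876, 929 and 1179 in wt untreated libraries. It rose in wt (1.15 ± 0.19, adjusted p = 0.000317) and was 0.43 ± 0.19 in MyD88ko (adjusted p = 0.201). Rpl19-ps1 had 138, 175 and 193 in MyD88ko LPS libraries, against 103, 123 and 106 in MyD88ko untreated libraries, and 193, 201 and 200 in wt LPS libraries, against 92, 78 and 87 in wt untreated libraries. Its LPS and untreated groups did not overlap in either genotype. The wt rise was called (1.20 ± 0.22, adjusted p = 0.000795), and the change was 0.59 ± 0.22 in MyD88ko (adjusted p = 0.122). The parent Rpl19 had 709, 790 and 580 in MyD88ko LPS libraries, against 1137, 1146 and 1308 in MyD88ko untreated libraries, and 628, 666 and 677 in wt LPS libraries, against 854, 917 and 869 in wt untreated libraries. It fell in MyD88ko (-0.80 ± 0.18, adjusted p = 0.0131) and was -0.42 ± 0.18 in wt (adjusted p = 0.118).

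Of the 5 members that fell in both genotypes, 3 were copies of Rpsa, a small subunit protein also known as the laminin receptor precursor. Rpsa-ps1 had 16, 23 and 34 in MyD88ko LPS libraries, against 125, 159 and 166 in MyD88ko untreated libraries, and 22, 13 and 32 in wt LPS libraries, against 80, 100 and 144 in wt untreated libraries. LPS and untreated libraries did not overlap, and its log2 fold change was -2.63 ± 0.36 in MyD88ko (adjusted p = 0.000288) and -2.27 ± 0.36 in wt (adjusted p = 0.000232). Rpsa-ps5 had 10, 17 and 23 in MyD88ko LPS libraries, against 84, 84 and 74 in MyD88ko untreated libraries, and 7, 9 and 9 in wt LPS libraries, against 64, 89 and 71 in wt untreated libraries. It fell in the same way, and its log2 fold change was -2.28 ± 0.37 in MyD88ko (adjusted p = 0.00103) and -3.01 ± 0.37 in wt (adjusted p = 2.09e-05). Rpsa-ps2 had 50, 52 and 78 in MyD88ko LPS libraries, against 141, 122 and 159 in MyD88ko untreated libraries, and 59, 54 and 52 in wt LPS libraries, against 121, 99 and 101 in wt untreated libraries. It fell less, and its log2 fold change was -1.24 ± 0.26 in MyD88ko (adjusted p = 0.00694) and -0.94 ± 0.26 in wt (adjusted p = 0.0141); its wt call ended without wt untreated replicate 1 (adjusted p = 0.061). The parent Rpsa had 7007, 8336 and 7942 in MyD88ko LPS libraries, against 19255, 20239 and 22319 in MyD88ko untreated libraries, and 6110, 6047 and 4800 in wt LPS libraries, against 12637, 14317 and 16228 in wt untreated libraries. It was lower in every LPS library, and its log2 fold change was -1.41 ± 0.19 in MyD88ko (adjusted p = 0.000243) and -1.35 ± 0.19 in wt (adjusted p = 5.99e-05).

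Other Rpsa copies were called in 1 genotype. Rpsa-ps9 had 815, 848 and 551 in MyD88ko LPS libraries, against 538, 498 and 661 in MyD88ko untreated libraries, and 845, 657 and 812 in wt LPS libraries, against 257, 300 and 330 in wt untreated libraries. It rose in wt (1.38 ± 0.21, adjusted p = 0.00017), and its MyD88ko groups, with a log2 fold change of 0.37 ± 0.21 (adjusted p = 0.342), overlapped. Rpsa-ps12 had 52, 41 and 52 in MyD88ko LPS libraries, against 101, 88 and 107 in MyD88ko untreated libraries, and 50, 46 and 54 in wt LPS libraries, against 47, 54 and 82 in wt untreated libraries. It fell in MyD88ko (-1.02 ± 0.29, adjusted p = 0.038; -0.24 ± 0.29 in wt, adjusted p = 0.599), and that call ended without any 1 of the 6 MyD88ko libraries (adjusted p of 0.0515 to 0.132). Rpsa-ps11, a low member that passed the filter through 1 group, had 2, 7 and 3 in MyD88ko LPS libraries, against 15, 9 and 6 in MyD88ko untreated libraries, and 1, 4 and 0 in wt LPS libraries, against 8, 11 and 9 in wt untreated libraries. It fell in wt (-2.25 ± 0.75, adjusted p = 0.0421; -1.18 ± 0.75 in MyD88ko, adjusted p = 0.392). The wt call of Rpsa-ps11 ended without any 1 wt untreated library, wt LPS replicate 1 or 3, or MyD88ko untreated replicate 2 or 3, with adjusted p of 0.0528 to 0.15. Rpsa-ps10, among the members with the highest values, had 2846, 3063 and 3100 in MyD88ko LPS libraries, against 3074, 3361 and 3731 in MyD88ko untreated libraries, and 2379, 2378 and 2187 in wt LPS libraries, against 1599, 2100 and 3009 in wt untreated libraries. Its LPS and untreated libraries overlapped in each genotype, and its log2 fold change was -0.17 ± 0.21 in MyD88ko (adjusted p = 0.695) and 0.10 ± 0.21 in wt (adjusted p = 0.793).

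Rpl9 and Rpl18 are large subunit proteins. Rpl9-ps7 had 39, 45 and 54 in MyD88ko LPS libraries, against 96, 105 and 85 in MyD88ko untreated libraries, and 23, 20 and 16 in wt LPS libraries, against 123, 112 and 110 in wt untreated libraries. It fell in each genotype, and its log2 fold change was -1.04 ± 0.28 in MyD88ko (adjusted p = 0.0312) and -2.50 ± 0.28 in wt (adjusted p = 9.65e-06). The MyD88ko call of Rpl9-ps7 ended without MyD88ko LPS replicate 1 or 2 or any 1 MyD88ko untreated replicate, with adjusted p of 0.0679 to 0.122. The parent Rpl9 had 649, 675 and 568 in MyD88ko LPS libraries, against 1068, 1168 and 1109 in MyD88ko untreated libraries, and 554, 502 and 525 in wt LPS libraries, against 836, 1032 and 775 in wt untreated libraries. It fell in each genotype, and its log2 fold change was -0.82 ± 0.18 in MyD88ko (adjusted p = 0.0108) and -0.73 ± 0.18 in wt (adjusted p = 0.00861). Rpl18-ps2 had 372, 417 and 486 in MyD88ko LPS libraries, against 726, 660 and 626 in MyD88ko untreated libraries, and 285, 262 and 208 in wt LPS libraries, against 432, 530 and 747 in wt untreated libraries. It fell in wt (-1.15 ± 0.22, adjusted p = 0.00108) and was -0.66 ± 0.22 in MyD88ko (adjusted p = 0.0821). The parent Rpl18 had 1936, 2400 and 2321 in MyD88ko LPS libraries, against 4260, 3825 and 3595 in MyD88ko untreated libraries, and 1810, 1702 and 1602 in wt LPS libraries, against 2957, 2752 and 5086 in wt untreated libraries. It fell in each genotype, and its log2 fold change was -0.81 ± 0.22 in MyD88ko (adjusted p = 0.0304) and -1.02 ± 0.22 in wt (adjusted p = 0.00263), so the log2 ratio of Rpl18-ps2 to Rpl18 changed by 0.15 in MyD88ko and -0.13 in wt.

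The remaining members among the 8 with the highest mean value were not called with LPS. Rpl10a-ps1, identical to Rpl10a over its whole length, had 3666, 3992 and 4338 in MyD88ko LPS libraries, against 4017, 5443 and 5132 in MyD88ko untreated libraries, and 3427, 3931 and 2990 in wt LPS libraries, against 2193, 2872 and 3223 in wt untreated libraries. Its log2 fold changes were -0.27 ± 0.20 in MyD88ko (adjusted p = 0.474) and 0.33 ± 0.20 in wt (adjusted p = 0.28). The parent Rpl10a had 730, 801 and 1016 in MyD88ko LPS libraries, against 2651, 3386 and 3162 in MyD88ko untreated libraries, and 667, 809 and 675 in wt LPS libraries, against 1862, 2069 and 2336 in wt untreated libraries. It fell far below the untreated libraries in each genotype, and its log2 fold change was -1.86 ± 0.20 in MyD88ko (adjusted p = 2.3e-05) and -1.54 ± 0.20 in wt (adjusted p = 2.82e-05). Rpl7-ps7 had 2312, 3383 and 5864 in MyD88ko LPS libraries, against 2617, 3254 and 2712 in MyD88ko untreated libraries, and 1902, 2453 and 1642 in wt LPS libraries, against 2398, 2545 and 2025 in wt untreated libraries. The parent Rpl7 had 2477, 3282 and 6057 in MyD88ko LPS libraries, against 8195, 9894 and 8022 in MyD88ko untreated libraries, and 1963, 2702 and 1903 in wt LPS libraries, against 7930, 8668 and 6414 in wt untreated libraries. Within the LPS groups the libraries high for Rpl7-ps7 were high for Rpl7, and the log2 ratio of Rpl7-ps7 to Rpl7 averaged -0.03 ± 0.07 in MyD88ko LPS libraries, against -1.605 ± 0.041 in MyD88ko untreated libraries (SD, n = 3 each). In wt that ratio was -0.13 ± 0.08 in LPS libraries, against -1.72 ± 0.05 in untreated libraries (SD, n = 3 each).

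Rpl7-ps7 itself changed by 0.33 ± 0.26 in MyD88ko (adjusted p = 0.513) and by -0.23 ± 0.26 in wt (adjusted p = 0.591). Rpl7 fell in each genotype, and its log2 fold change was -1.24 ± 0.26 in MyD88ko (adjusted p = 0.00721) and -1.82 ± 0.26 in wt (adjusted p = 8.38e-05). Rpl3-ps1, a copy of the large subunit gene Rpl3, had 2824, 3095 and 2337 in MyD88ko LPS libraries, against 1800, 2261 and 2433 in MyD88ko untreated libraries, and 2858, 2299 and 2501 in wt LPS libraries, against 1700, 1885 and 1883 in wt untreated libraries. Its log2 fold changes were 0.35 ± 0.19 in MyD88ko (adjusted p = 0.313) and 0.48 ± 0.19 in wt (adjusted p = 0.0866). Rpl3 had 937, 1026 and 745 in MyD88ko LPS libraries, against 1242, 1529 and 1591 in MyD88ko untreated libraries, and 855, 760 and 831 in wt LPS libraries, against 1058, 1116 and 956 in wt untreated libraries. Rpl3 fell in MyD88ko (-0.69 ± 0.19, adjusted p = 0.0354) and was -0.35 ± 0.19 in wt (adjusted p = 0.214). Over the 18 members called in neither genotype, log2 fold changes ran from -2.01 to 1.76 in MyD88ko and from -1.20 to 1.90 in wt. Both upper ends belong to Rpl9-ps3, a low member with 15, 13 and 13 in MyD88ko LPS libraries, against 4, 3 and 3 in MyD88ko untreated libraries, and 11, 12 and 11 in wt LPS libraries, against 5, 0 and 5 in wt untreated libraries. Its groups did not overlap, but its adjusted p was 0.152 in MyD88ko and 0.0666 in wt.

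Each member was also set against its parent in the same library, and a parent with several copies was counted with each of them. The log2 ratio of member to parent, with 1 added to each, was higher with LPS for 43 of 54 complete members in MyD88ko and for 38 in wt. For 32 members in each genotype the LPS libraries lay above all untreated libraries, and for 3 members in MyD88ko and 10 in wt they lay below. The median change of the ratio was 1.23 in MyD88ko and 0.93 in wt. These are descriptions with no test, and the ratio rises when a parent falls and its copy does not. No such count was made for other pairs of genes, so there is no background to set these counts against.

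Summed by family, pseudogenes took a larger share of the family's counts with LPS. The share was the summed pseudogenes as a percent of pseudogenes plus parent, in counted reads and not scaled by length. LPS libraries lay above untreated libraries in 17 of 20 families in MyD88ko and in 16 in wt, and below them in 0 and 1 families. These counts too are descriptions, with no such count made for other sets of genes. Rpl5 pseudogenes took 30.8, 30.4 and 29.9% in MyD88ko LPS libraries, against 5.42, 6.96 and 6.16% in MyD88ko untreated libraries. In wt they took 35.3, 32.2 and 30.1% with LPS, against 5.22, 4.99 and 7.30% untreated. Rpl7a pseudogenes averaged 65.0 ± 3.6% in MyD88ko LPS libraries, against 28.7 ± 2.6% in MyD88ko untreated libraries (SD, n = 3 each). Rpl10a pseudogenes took 83.4, 83.3 and 81.0% in MyD88ko LPS libraries, against 60.2, 61.7 and 61.9% in MyD88ko untreated libraries. In wt the Rpl10a share was 83.7, 83.0 and 81.6% with LPS, against 65.1, 58.7 and 61.3% untreated. Families that did not separate in both genotypes included Rpl9, Rpl18 and Rplp0.

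**Figure D3:**
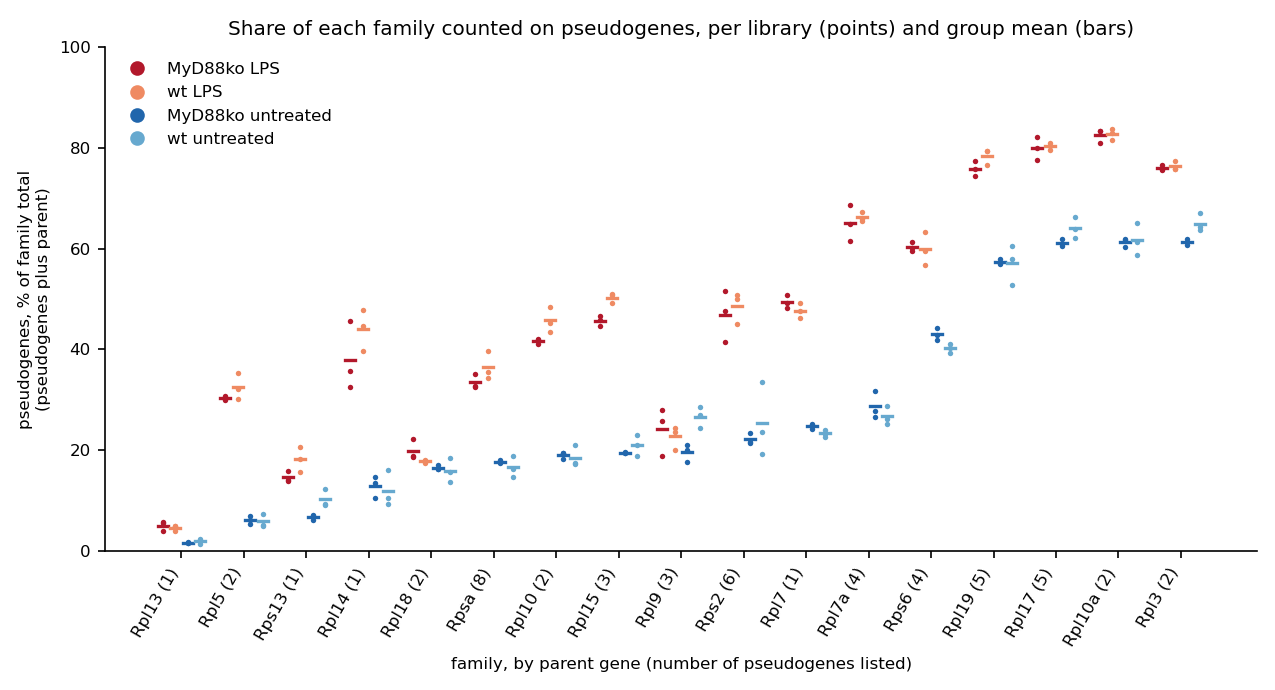
Pseudogenes as a percent of each family's total (pseudogenes plus parent), per library (points) with the group mean (bars), for 17 families ordered by the MyD88ko untreated mean. In 15 of them LPS libraries of each genotype lie above its untreated libraries; the Rplp0 family, with a share under 1%, is not drawn.

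The family totals, parent plus pseudogenes, were lower with LPS in 16 of 20 families in each genotype, with a median log2 ratio of -0.53 in MyD88ko and -0.43 in wt. They ranged from -1.52 to 0.56 in MyD88ko and from -1.63 to 0.57 in wt. Over the whole library, members made up 0.841 ± 0.021% of the summed values in MyD88ko LPS libraries, against 0.649 ± 0.021% in MyD88ko untreated libraries (SD, n = 3 each). In wt their share was 0.773 ± 0.016% with LPS, against 0.559 ± 0.019% untreated (SD, n = 3 each). The parents went the other way, with 1.246 ± 0.059% in MyD88ko LPS libraries, against 2.37 ± 0.05% in MyD88ko untreated libraries. In wt the parents made up 1.05 ± 0.04% with LPS, against 2.01 ± 0.21% untreated. The other listed pseudogenes made up 5.81 ± 0.60% in MyD88ko LPS libraries, against 4.07 ± 0.06% in MyD88ko untreated libraries, and in wt 5.72 ± 0.22% with LPS, against 4.21 ± 0.61% untreated.

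Between genotypes, few members differed. These comparisons use the same libraries as the LPS comparisons, so their values are given side by side only. In untreated cells 3 members were called higher and 2 lower in MyD88ko than in wt, while over all genes 1.88% were called, 0.791% higher and 1.09% lower. Without wt untreated replicates 1 and 3 the count was 0, against 0.291% of all genes. It was 1 without MyD88ko untreated replicate 2 (0.71% of all genes), MyD88ko untreated replicate 3 (0.515%) or wt untreated replicate 1 (0.672%). It was 3 without MyD88ko LPS replicate 2 (1.45%), wt LPS replicate 1 (1.35%) or MyD88ko untreated replicate 1 (1.58%). Rpsa-ps9 was higher by 0.93 ± 0.21 (adjusted p = 0.0289), Rps2-ps10 by 0.83 ± 0.21 (adjusted p = 0.0427) and Rpl10a-ps1 by 0.82 ± 0.20 (adjusted p = 0.0403). Leaving out 1 library ended the call of Rpsa-ps9 for 4 libraries, of Rps2-ps10 for 8 and of Rpl10a-ps1 for 5. The adjusted p from limma then reached 0.184, 0.202 and 0.237. For Rpsa-ps9 and Rps2-ps10 all MyD88ko untreated libraries lay above all wt untreated ones, as they did for Rpl10a-ps1. The lower ones were Rpl10a-ps2, with a log2 difference of -6.65 ± 0.78, and Rps2-ps11, with -4.47 ± 0.98. Both entered the test only through wt untreated cells, where replicates 1 and 3 were high, so these differences are descriptions. Of the 20 parents 0 were called, although 6 had an unadjusted p under 0.05, against 1923 of 12385 genes. The parents' median was 0.34 against 0.29 for the members and 0.00 over all genes.

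Mesenchymal marker sums were 89025 to 111330 in MyD88ko untreated libraries and 43643 to 101308 in wt untreated libraries, and their part in these differences was not tested. With LPS, 1 member was called higher, Rpl9-ps7, while over all genes 1.49% were called and 0.452% were called higher. It was higher in MyD88ko by 1.19 ± 0.28 (adjusted p = 0.0348), with 39, 45 and 54 in MyD88ko LPS libraries, against 23, 20 and 16 in wt LPS libraries. That call ended when any 1 library was left out other than MyD88ko LPS replicate 1 and wt untreated replicates 2 and 3, with adjusted p of 0.0504 to 0.129. For the difference between the LPS responses, MyD88ko minus wt, limma called 0 members, against 0.0161% of all genes (0.00807% in each direction). An unadjusted p under 0.05 was reached by 10 of 52 members and by 1137 of 12385 genes. Those 10 included Rpl10a-ps2, Rps2-ps11 and Rpl19-ps9, which entered the test only through wt untreated cells. Limma without trend and voom also called 0 members for this difference, against 0% of all genes. Leaving out wt untreated replicate 2 gave 2 members, against 0.353% of all genes. The calls made in 1 genotype alone are therefore not shown to differ between genotypes.

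Some members were present almost wholly in wt untreated libraries 1 and 3. Rpl10a-ps2 had 2, 4 and 5 in MyD88ko LPS libraries, 7, 4 and 8 in wt LPS libraries, 1, 2 and 6 in MyD88ko untreated libraries, and 1280, 69 and 478 in wt untreated libraries. Rps2-ps11 had 2, 4 and 2 in MyD88ko LPS libraries, 4, 3 and 0 in wt LPS libraries, 8, 6 and 5 in MyD88ko untreated libraries, and 981, 21 and 189 in wt untreated libraries. The order of the wt untreated libraries was the same for both, replicate 1 above 3 above 2. Rpl19-ps9 had 112, 10 and 38 in wt untreated libraries, and at most 11 elsewhere. Rpl19-ps12 had 91, 7 and 30 in wt untreated libraries, and at most 10 elsewhere. Rpl7a-ps8 had 90, 3 and 30 in wt untreated libraries, and at most 1 in the libraries listed elsewhere. Rps2-ps2 had 49, 1 and 17 in wt untreated libraries, and at most 3 in the libraries listed elsewhere.

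These 6 members are those with at least 10 in wt untreated replicates 1 and 3 and at least 3 times the highest value of the 9 libraries of other groups, a rule chosen after the values were seen. They are 10.3% of members, while 81 of 1114 other pseudogenes (7.27%) and 60 of 12947 protein-coding genes (0.463%) met the same rule. Some other transcripts were high in the same libraries. For Gata3, a transcription factor of T cells and of some epithelia, chosen after its values were seen, wt untreated libraries had 957, 23 and 258, and no other library had above 19. Of the 8 listed epithelial markers, Cldn4, a tight junction protein, had 213, 7 and 122 in wt untreated libraries and at most 6 elsewhere. Krt19, an epithelial keratin, had 166, 0 and 62 in wt untreated libraries and up to 20 elsewhere. Those 2 markers shared the order of replicate 1 above 3 above 2, as did Epcam at low values, and Cdh1, Krt18 and Krt20 did not. Cdh1, the epithelial cadherin, had 3, 0 and 719 in wt untreated libraries, and Krt18, another keratin, had 1, 0 and 68. Epcam, an epithelial adhesion protein, had 11, 1 and 10 in wt untreated libraries and up to 10 elsewhere. Krt20 had 3, 5 and 2 in wt untreated libraries and up to 6 elsewhere, Muc2 was at 0 in all untreated libraries, and Lgals4 had no value listed in wt untreated libraries. The part of these transcripts in the members' values was not tested.

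All 6 shared no 100-base window with the parent, while 8 of the 52 other members shared none. Their identity with the parent ran from 89.8 to 97.2%, against a median of 98.7% for the other members. The rule that chose the 6 is hard to meet for a member high in every library, and members closer to a parent had higher values. Both contrasts are therefore descriptions and partly follow from the choice. In Rpl10a-ps2 the longest run identical to Rpl10a was 76 bases, and in Rps2-ps11 the longest run identical to Rps2 was 88. LPS calls in wt are touched by this: of the 13 members that fell in wt, 4 were in this set. These 4 entered the test only through wt untreated cells, the group their wt change is taken against, so these changes are descriptions. With LPS in wt Rpl10a-ps2 was -5.62 ± 0.78, and -3.30 once wt untreated replicates 1 and 3 were dropped. Rps2-ps11 was -5.88 ± 0.98, and -3.02 once both libraries were dropped. Rpl19-ps9 was -4.52 ± 0.83, and -2.79 once both were dropped. Rpl19-ps12 was -2.96 ± 0.80. Its change was -2.53 with only wt LPS replicate 2 dropped, and -2.12 with only wt untreated replicate 1 dropped.

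In untreated cells the genotype difference of Rpl10a-ps2 was -4.33 without both libraries, and that of Rps2-ps11 was -1.61. In MyD88ko, where neither library enters the difference, Rpl10a-ps2 changed with LPS by 0.37 ± 0.78 (adjusted p = 0.837) and Rps2-ps11 by -1.02 ± 0.98 (adjusted p = 0.598). Higher values in the same libraries were also seen for Rps2-ps5, with 66, 7 and 29 in wt untreated libraries and at most 23 elsewhere. Rps2-ps9 had 34, 2 and 15 in wt untreated libraries and at most 9 elsewhere. In the authors' deposited table of wt untreated against MyD88ko untreated cells, 3 of 58 members passed an adjusted p of 0.05, Rpl10a-ps2, Rpl7a-ps8 and Rps2-ps11, against 1.6% of all genes listed there. The authors' deposited tables called 6 of 55 members with LPS in MyD88ko (0.755% of all genes listed), 20 of 57 in wt (4.35%) and 0 of 53 between genotypes with LPS (0.544%).

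Members closer to a parent had higher values. Across the 52 tested members, identity and mean value had a Spearman correlation of 0.605, given as a description, since the members share libraries and parents. Identity and the LPS change were related weakly, with 0.133 in MyD88ko and 0.179 in wt. The median identity was 98.9% among the 11 members that rose in both genotypes and 99% among the 5 that fell in both. A reading frame intact up to and including a stop codon was present in 6 of those 11 and in 2 of those 5. By mean value, 10 members had at least 1000, 23 had 100 to 1000, 16 had 10 to 100, and 9 had less than 10.

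**Figure D4:**
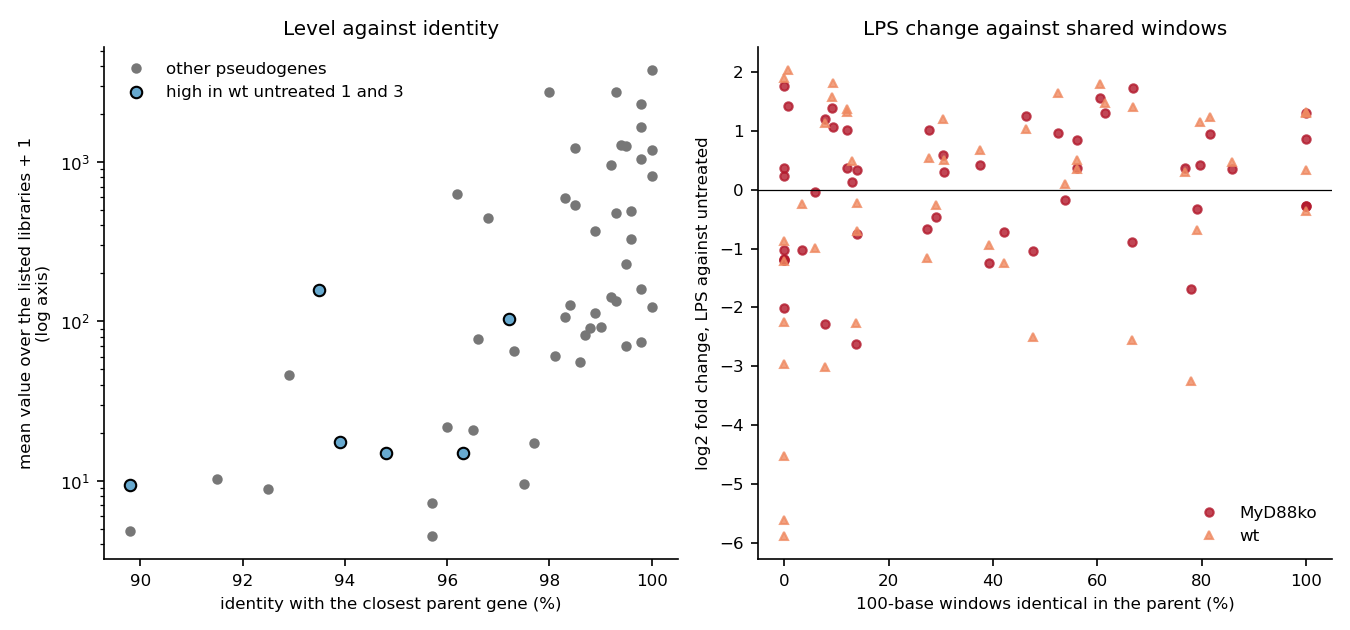
Left, mean value over the listed libraries plus 1 (log axis) against identity with the closest parent gene, for 53 pseudogenes, with the 6 that were high in wt untreated replicates 1 and 3 outlined. Right, log2 fold change with LPS against the percent of 100-base windows found unchanged in the parent, for 49 of the tested pseudogenes in MyD88ko (circles) and wt (triangles), with rises and falls along the whole axis.

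The other 6 members were not tested. Among them, Rpl7a-ps8 and Rps2-ps2 lacked values in part of the libraries, and Rpl19-ps4 and Rplp0-ps1 did not reach a mean of 10 in any group. Rplp0, the stalk protein of the large subunit, had 2277, 3209 and 3053 in MyD88ko LPS libraries, against 7024, 9276 and 8160 in MyD88ko untreated libraries, and 2791, 2464 and 2350 in wt LPS libraries, against 5558, 6338 and 5955 in wt untreated libraries. It fell in each genotype, and its log2 fold change was -1.52 ± 0.19 in MyD88ko (adjusted p = 0.000166) and -1.23 ± 0.19 in wt (adjusted p = 0.000198). Its copy Rplp0-ps1 had 1, 4 and 0 in MyD88ko LPS libraries, against 4, 5 and 6 in MyD88ko untreated libraries, and 0, 1 and 0 in wt LPS libraries, against 12, 5 and 4 in wt untreated libraries. Rps13, a small subunit gene, also fell, and its log2 fold change was -0.86 ± 0.21 in MyD88ko (adjusted p = 0.0179) and -0.66 ± 0.21 in wt (adjusted p = 0.033), whereas Rps13-ps1 changed by 0.37 ± 0.22 in MyD88ko (adjusted p = 0.339) and 0.31 ± 0.22 in wt (adjusted p = 0.35). Rpl18-ps1, whose closest gene was not Rpl18, changed by 0.14 ± 0.38 in MyD88ko (adjusted p = 0.874) and 0.48 ± 0.38 in wt (adjusted p = 0.407).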

How the data were processed

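Polyadenylated RNA of 12 libraries was read from the 3′ end (QuantSeq, Ion Proton). Per the submitters' processing notes, TopHat2, Bowtie2 and DESeq were used with mm10; versions are not given in the sources used here. The authors deposited 4 tables whose values are normalized counts rounded to whole numbers, treated here as a score and not as raw counts. A p-value and an FDR per gene were also deposited. All 166719 values listed in more than 1 table were equal. Comparisons used limma 3.58.1 under R 4.3.3 on log2(value + 1), with trend and robust settings, 12 libraries and 8 residual degrees of freedom. They covered 12385 genes that had all 12 values and reached a group mean of 10, with Benjamini-Hochberg adjustment over all of them. The fold of low genes is understated by the added 1. The procedure was tested on simulated data. Library depth was estimated from the steps between low values. Pseudogenes were aligned to ribosomal protein transcripts with Biopython 1.88 (match 2, mismatch -3, gap open -5, gap extension -2). Members described in full were those called in any of 5 comparisons, the 8 with the highest mean, those highest in wt untreated replicate 1 or 3, and their parents. The members, gene lists and markers were chosen with earlier results of these data known. Alternatives were other scalings, filters, pseudocounts, limma settings and left-out libraries. Some items are not reported here by name and are left out of the figures, while counts over all members include them.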

Additional observations from a re-analysis of the deposited data

How the results depend on the processing

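No member call changed direction under any alternative. Of 56 calls, 27 held under every alternative, and 121 of 1282 values of called members missed the threshold. The count of members called with LPS in wt was 31, and 17 without wt untreated replicates 1 and 3 together. In MyD88ko it was 19, and 12 to 20 with 1 library left out. Between untreated genotypes the count was 5, 1 without trend, 2 with voom, 1 with only the groups compared, 0 without wt untreated replicates 1 and 3, and 1 to 5 with 1 library left out. With LPS it was 1, 0 with voom, 0 with only the groups compared, 0 without wt untreated replicates 1 and 3, and 0 to 2 with 1 library left out. For the difference between responses it was 0, and 0 to 2 with 1 library left out. The cause of these changes was not tested, apart from the smaller number of libraries where some were left out. The median change of the ratio to the parent in MyD88ko, 1.23, was 1.127 to 1.253 with 1 library left out. As a percent of ribosomal protein genes in place of all genes, members made up 13.5% in MyD88ko LPS, 14.9% in wt LPS, 6.76% in MyD88ko untreated and 6.72% in wt untreated libraries. Deviations from the group mean had correlations of -0.114 to 0.171 between libraries with the same replicate number. With 3 libraries per group this cannot show whether the numbers pair them. With the replicate block 4 members were called between untreated genotypes (2.24% of all genes) and 1 between genotypes with LPS (1.66%).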
